A study of Mus musculus with 6 samples.

Results

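The nuclear genes of cytochrome c oxidase were followed in inguinal white adipose tissue (iWAT), in mice that carry a *Hlx* transgene and in wild-type mice. Members were the rows of the deposited expression table whose gene symbol is Cox with a digit next, or is *Cycs*, *Sco1*, *Sco2*, *Surf1*, *Taco1* or 1 of 5 *Coa* genes, and 31 of the 19445 gene loci met this rule. The set holds 10 widely expressed structural subunits, 7 tissue isoforms, 11 assembly factors, the supercomplex factor *Cox7a2l*, cytochrome c (*Cycs*) and *Cox4nb*, which shares the letters of the name but encodes a protein of another complex and was kept apart. Expression was given as FPKM, a read density scaled to transcript length and to mapped reads. Levels of different genes can be set side by side only roughly, and the isoform shares below are shares of FPKM.

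RNA-Seq was done on iWAT of 3 *Hlx* transgenic mice and 3 littermate wild-type controls, with 1 library per mouse, at 12 weeks of age, and all 6 mice were labelled male. The transgene was a *Hlx* cDNA under the *aP2* (*Fabp4*) promoter, which is active mainly in fat cells. It was injected into C57BL/6 × SJL embryos, and lines were then backcrossed to C57BL/6 over at least 3 generations. The SJL share left in each mouse, and whether it was alike in both genotypes, is not given. The tissue was whole fat, in which more cells of a type and more RNA per cell cannot be told apart. *Hlx* itself had 96.2 ± 15.3 FPKM (SD, n = 3) in the transgenic and 7.45 ± 0.637 FPKM in the wild-type mice. The FPKM of a library summed to between 466059 and 542096, and the 7 adipocyte markers summed to between 26159 and 34064 FPKM in every mouse. Most of the marker sum was *Fabp4*, which alone ranged from 19297 to 29363 FPKM per mouse. The sum therefore says little about the other adipocyte markers. *Xist* had 20.2 to 33.6 FPKM in all 6 libraries and 0 of 28 loci on the Y chromosome had a value above 0, which goes against the male label for both genotypes alike. Read counts were not used here, so absolute depth is unknown; the steps between the lowest values gave relative depths of 0.692 to 1.41 across the 6 libraries, a rough estimate, since 12.5% to 15.3% of the low values lay on the step in the 5 libraries other than the reference.

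Cytochrome c oxidase, complex IV of the respiratory chain, takes electrons from cytochrome c and passes them to oxygen while it pumps protons across the inner mitochondrial membrane. Its catalytic core is encoded by mitochondrial DNA, and a ring of small subunits encoded in the nucleus surrounds this core. Several of these subunits exist as a widely expressed form and a form restricted to some tissues; *Cox7a1* and *Cox8b* are the forms of heart, skeletal muscle and brown fat in rodents. A separate group of assembly factors makes the heme, delivers the copper and inserts the core subunits, and does not remain in the finished enzyme. Brown and beige adipocytes are rich in mitochondria and burn fuel through this chain to make heat.

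The pairs *Cox7a1* with *Cox7a2* and *Cox8b* with *Cox8a* showed the largest shift between isoforms, and the sequences directly upstream of their start sites are shown because the partners differ in CpG content. They are RefSeq promoter sequences of mouse build GRCm38.p6, written 5′ to 3′ on the strand of the gene, with CpG dinucleotides in capitals. They lie at chr7:30183921-30184143 on the plus strand (*Cox7a1*, 223 bases), chr9:79759879-79760103 on the minus strand (*Cox7a2*, 225 bases), chr7:140900447-140900696 on the minus strand (*Cox8b*, 250 bases) and chr19:7217617-7217866 on the minus strand (*Cox8a*, 250 bases). Bases inside an annotated exon were left out for *Cox7a1* and *Cox7a2*. The *Cox7a2* window lies inside the RefSeq span of its gene, chr9:79755241-79771422, so the start site used is not the outermost one.
Cox7a1: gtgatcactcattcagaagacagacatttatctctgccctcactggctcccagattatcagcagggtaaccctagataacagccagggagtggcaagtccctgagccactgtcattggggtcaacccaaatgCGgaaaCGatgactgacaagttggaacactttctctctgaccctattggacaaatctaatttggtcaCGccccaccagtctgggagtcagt
Cox7a2: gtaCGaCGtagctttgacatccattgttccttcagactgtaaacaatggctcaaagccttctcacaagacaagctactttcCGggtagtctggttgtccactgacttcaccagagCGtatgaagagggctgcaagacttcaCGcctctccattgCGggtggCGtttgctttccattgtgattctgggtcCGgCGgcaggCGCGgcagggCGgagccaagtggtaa
Cox8b: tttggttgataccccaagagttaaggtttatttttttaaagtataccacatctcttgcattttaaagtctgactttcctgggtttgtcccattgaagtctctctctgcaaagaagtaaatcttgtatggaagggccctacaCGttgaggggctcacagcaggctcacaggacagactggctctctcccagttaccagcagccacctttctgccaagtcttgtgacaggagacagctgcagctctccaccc
Cox8a: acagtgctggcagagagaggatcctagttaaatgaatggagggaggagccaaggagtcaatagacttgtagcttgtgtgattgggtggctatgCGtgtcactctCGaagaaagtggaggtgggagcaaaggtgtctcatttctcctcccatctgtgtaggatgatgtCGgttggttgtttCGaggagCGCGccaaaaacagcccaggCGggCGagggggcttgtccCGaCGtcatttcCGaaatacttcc

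In the full window of 250 bases, *Cox7a1* had 4 CpG dinucleotides and *Cox8b* had 1, against 14 for *Cox7a2* and 11 for *Cox8a*. The median of the 32851 promoters of the RefSeq table was 6, with quartiles of 2 and 16. The 23 of 31 members that matched a promoter had a median of 16. *Cox7a1* and *Cox8b* were below it, but so were *Cox7a2*, *Cox8a* and several others. Among these were *Cox7b* with 5, *Cox7c* with 9, *Cox7a2l* with 13, which was not called, and *Cox7b2* with 9, which was listed at 0. A link between CpG content and change was not tested. 4 short motifs were searched on both strands of this window. The estrogen-related receptor motif TCAAGGTCA was in 0 of the 23 member promoters and in 0.387% of all promoters, and the homeodomain core TAATTA was in 0 and in 4.84%. The NRF1 motif GCGCATGCG was in the promoters of *Cox6a1* and *Cycs* and in 1.45% of all promoters, and in *Cox6a1* its matches on both strands overlapped each other. The ETS motif CCGGAAG was in 5 member promoters (*Cox10*, *Cox16*, *Cox6a1*, *Cox6b1* and *Sco1*) and in 6.91% of all promoters. Matches of different motifs overlapped in 0 member promoters. None of the 4 motifs was in the windows of *Cox7a1*, *Cox7a2*, *Cox8b* or *Cox8a*, which says only that these letters are absent there.

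Of the 31 members, 29 had a mean above 1 FPKM in 1 or both genotypes. They were tested as part of all 11692 loci above that level, on the log2(FPKM + 1) scale with limma, and p-values were adjusted by the Benjamini-Hochberg method over all of these loci. At an adjusted p under 0.05, 22 members were higher in transgenic than in wild-type iWAT, where 11.6% of all loci tested were called higher. No member was called lower, where 7.03% of all loci were, and the only tested member with a negative log2 fold change was *Cox7a2l* (unadjusted p = 0.605, limma). In 24 of the 29, every transgenic mouse was above every wild-type mouse, against 22.8% of all loci. The ratio of mean FPKM was at least 2 in 10 of the 29, namely *Cox7a1*, *Cox8b*, *Cox6a2*, *Cox5a*, *Cox5b*, *Cox6b1*, *Cox6c*, *Cox7a2*, *Cox7b* and *Cycs*, against 4.52% of all loci. The median log2 fold change was 1.04 for the 15 tested structural subunits and 0.57 for the 11 assembly factors, beside -0.01 for all loci tested. Fold changes on the log2(FPKM + 1) scale understate the change of genes with low FPKM.

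**Figure D1:**
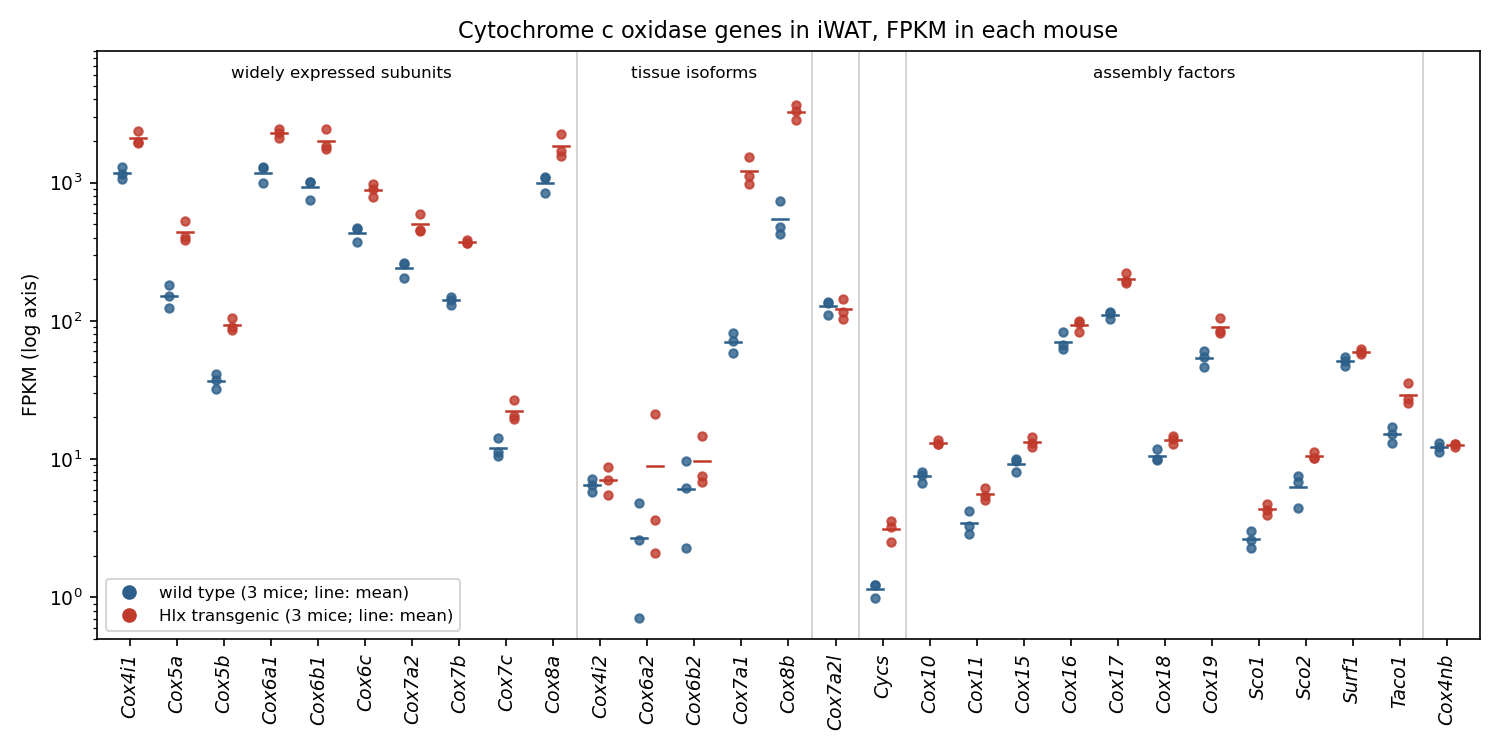
FPKM (log axis) of each of the 29 tested members in each mouse, in blue for 3 wild-type and in red for 3 *Hlx* transgenic mice, with a line at each mean and grey lines between roles (the unlabelled columns are *Cox7a2l*, *Cycs* and *Cox4nb*). All 10 widely expressed subunits lie higher in the transgenic mice, *Cox7a1* and *Cox8b* move furthest, and the genotypes overlap for *Cox4i2*, *Cox6a2*, *Cox6b2*, *Cox7a2l* and *Cox4nb*.

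Subunit VIIa gave the largest change. *Cox7a1* had 1532, 973 and 1124 FPKM in the 3 transgenic mice and 81.8, 58.6 and 71.5 FPKM in the wild-type mice. The genotypes were far apart, with a 17.1-fold ratio of means and a log2 fold change of 4.07 (SE 0.20, limma adjusted p = 0.000231), the 5th largest rise among all loci tested. Its widely expressed partner *Cox7a2* had 596, 456 and 449 FPKM in transgenic mice, against 264, 256 and 205 FPKM in wild-type mice. It rose as well, but by a log2 fold change of 1.04 (SE 0.16, limma adjusted p = 0.00633). *Cox7a1* therefore made up 72.0%, 68.1% and 71.5% of the summed FPKM of the pair in transgenic mice and 23.7%, 18.6% and 25.9% in wild-type mice. By FPKM, the minor form of the pair in wild-type iWAT was thus the major form in each transgenic mouse, at 70.5% ± 2.12 against 22.7% ± 3.71 (SD, n = 3 each). The deposited *Cox7a1* locus (chr7:30184152-30198869 of mm10) is 14718 bases wide, against 1860 bases in RefSeq, and overlaps *Capns1*, which had 562 ± 48.0 and 412 ± 30.4 FPKM in transgenic mice, against wild-type mice.

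Subunit VIII followed the same direction from a higher starting level. *Cox8b* had 3618, 3323 and 2855 FPKM in transgenic mice, against 734, 424 and 479 FPKM in wild-type mice. It was the member with the highest mean FPKM in transgenic iWAT, and its log2 fold change of 2.61 (SE 0.23, limma adjusted p = 0.000914) ranked 32nd among all loci. *Cox8a* had 2235, 1682 and 1562 FPKM in transgenic mice, against 1090, 1075 and 837 FPKM in wild-type mice, with a log2 fold change of 0.86 (SE 0.19, limma adjusted p = 0.0243). The call of *Cox8a* was lost without transgenic replicate 1, wild-type replicate 2 or wild-type replicate 3, where the adjusted p was 0.0546, 0.0581 and 0.0835, and with no filter on low loci, where it was 0.0714 (limma). *Cox8b* was 61.8%, 66.4% and 64.6% of the pair in transgenic and 40.2%, 28.3% and 36.4% in wild-type mice. The shares did not overlap, and their means were 64.3% ± 2.31 and 35.0% ± 6.10 (SD, n = 3 each).

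In the other pairs no shift toward the tissue isoform was detected. *Cox4i2*, the form of subunit IV known from lung and from low oxygen, had 8.72, 5.46 and 7.0 FPKM in transgenic mice, against 6.51, 5.81 and 7.13 FPKM in wild-type mice. These values overlapped, and the log2 fold change was 0.09 (95% interval -0.28 to 0.46, limma adjusted p = 0.701). *Cox4i1* had 2368, 1941 and 1961 FPKM in transgenic mice, against 1295, 1155 and 1055 FPKM in wild-type mice and rose by a log2 fold change of 0.84 (SE 0.16, limma adjusted p = 0.0130). That call was lost without wild-type replicate 2 or 3 and with no filter on low loci, with adjusted p of 0.0509, 0.0544 and 0.0620 (limma). *Cox4i2* was 0.367%, 0.281% and 0.356% of its pair in transgenic and 0.500%, 0.501% and 0.671% in wild-type mice, so that its share was lower in each transgenic mouse while its own level did not pass the test.

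*Cox6a2*, the form of subunit VIa of heart and skeletal muscle, had 2.11, 21.1 and 3.62 FPKM in transgenic mice, against 0.709, 4.79 and 2.59 FPKM in wild-type mice. Transgenic replicate 2 stood far above the other 5 mice and the genotypes overlapped, with a log2 fold change of 1.05 (95% interval -0.74 to 2.85, limma adjusted p = 0.352). Without that mouse the log2 fold change was 0.21 (limma adjusted p = 0.795). *Cox6a1*, the widely expressed form, had 2460, 2295 and 2094 FPKM in transgenic mice, against 1266, 1291 and 987 FPKM in wild-type mice. It rose by a log2 fold change of 0.96 (SE 0.17, limma adjusted p = 0.00991), and the adjusted p was 0.0511 with no filter on low loci. *Cox6a2* was under 1% of its pair in every mouse.

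*Cox6b2*, a form of subunit VIb best known from testis, had 14.8, 6.84 and 7.50 FPKM in transgenic mice, against 6.20, 9.74 and 2.29 FPKM in wild-type mice. The genotypes overlapped, and the log2 fold change was 0.68 (95% interval -0.39 to 1.75, limma adjusted p = 0.314). *Cox6b1*, which sits on the side where cytochrome c docks, had 2426, 1837 and 1754 FPKM in transgenic mice, against 1012, 1011 and 753 FPKM in wild-type mice. Its log2 fold change was 1.11 (SE 0.19, limma adjusted p = 0.0104). The testis forms *Cox7b2* and *Cox8c* were listed at 0 in all 6 mice and were not tested.

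The ratio of tissue isoform to widely expressed isoform was compared within each mouse on the log2 scale. The difference between transgenic and wild-type mice was 3.02 for *Cox7a1*/*Cox7a2*, 1.75 for *Cox8b*/*Cox8a* and -0.75 for *Cox4i2*/*Cox4i1*, and in each of these the genotypes did not overlap. The exact permutation test over 20 arrangements gave p = 0.1 for each of these 3 pairs, the smallest two-sided p that 3 mice against 3 allow, or 0.167 after Benjamini-Hochberg adjustment over the 5 pairs. For *Cox6b2*/*Cox6b1* the difference was -0.43 (exact permutation p = 0.4) and for *Cox6a2*/*Cox6a1* it was 0.10 (exact permutation p = 1), with overlapping mice in both. The *Cox6a2*/*Cox6a1* difference turned to -0.75 without transgenic replicate 2 and to -0.43 without wild-type replicate 1. When single mice were left out, the difference stayed between 2.85 and 3.15 for *Cox7a1*/*Cox7a2*, and between 1.54 and 1.92 for *Cox8b*/*Cox8a*.

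**Figure D2:**
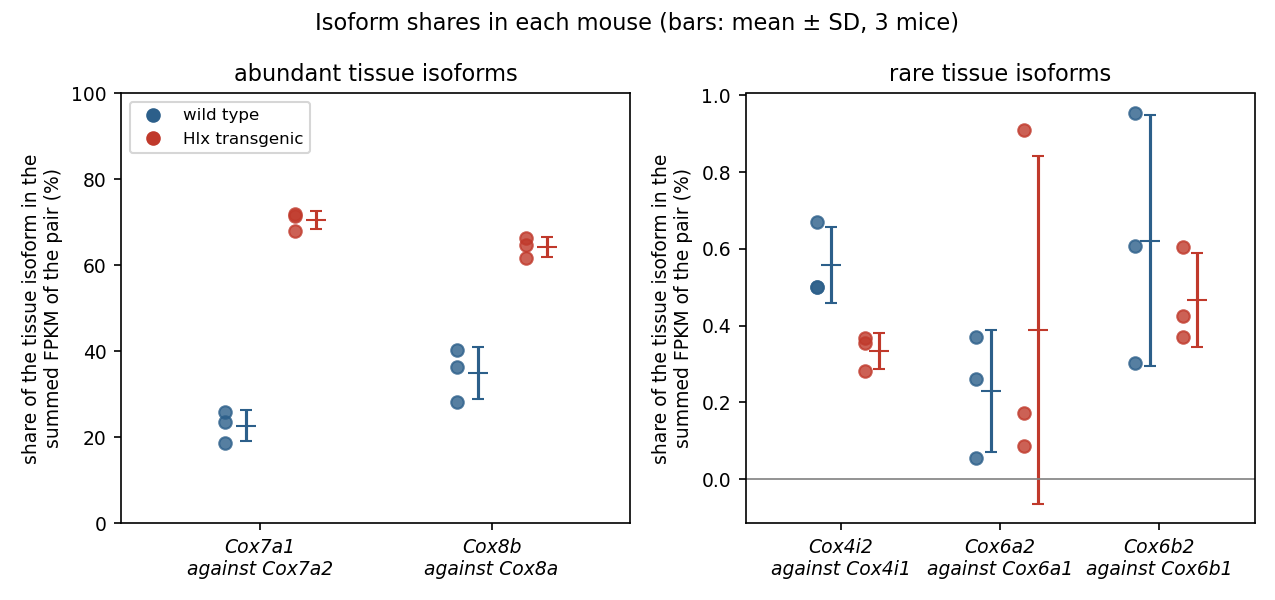
Share of the tissue isoform in the summed FPKM of its pair (%) in each mouse, with the mean ± SD of 3 mice beside the points, for the abundant pairs on the left and, on a narrower scale, the rare ones on the right. *Cox7a1* goes from 22.7% to 70.5% and *Cox8b* from 35.0% to 64.3% with no overlap, *Cox4i2* is lower in each transgenic mouse, and the wide *Cox6a2* bar, which passes below 0, comes from transgenic replicate 2.

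Skeletal muscle expresses *Cox6a2*, *Cox7a1* and *Cox8b*, and muscle marker RNA was present in these libraries. All 16 muscle markers were in the table, but *Tnnt3* shares its row with *Lsp1*, a leukocyte gene, so sums are given over the 15 markers alone on their row, a choice made after the values were seen. These, with *Acta1* and *Ckm* among them, summed to 124, 887 and 175 FPKM in transgenic replicates 1, 2 and 3 and to 11.1, 191 and 54.3 FPKM in wild-type replicates 1, 2 and 3. Transgenic replicate 2 was the highest and wild-type replicate 1 the lowest, and the genotypes overlapped, with a 4.62-fold ratio of means. Of the 14 tested, 13 had a higher mean in transgenic mice, with a median ratio of 5.03, while 0 were called and 2 had an unadjusted p under 0.05 (limma). With the shared row the sums were 287, 1220 and 351 FPKM in transgenic mice, against 211, 430 and 308 FPKM in wild-type mice. *Cox6a2* too was highest in transgenic replicate 2 and lowest in wild-type replicate 1. Wild-type replicate 2 had a higher muscle sum than transgenic replicates 1 and 3, and its *Cox7a1* and *Cox8b* levels were 58.6 and 424 FPKM, below those of both. Without transgenic replicate 2 the log2 fold change was 4.21 for *Cox7a1* and 2.60 for *Cox8b*. The part of muscle RNA in these changes was not tested. The 4 heart markers all stayed under 1 FPKM on average.

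**Figure D3:**
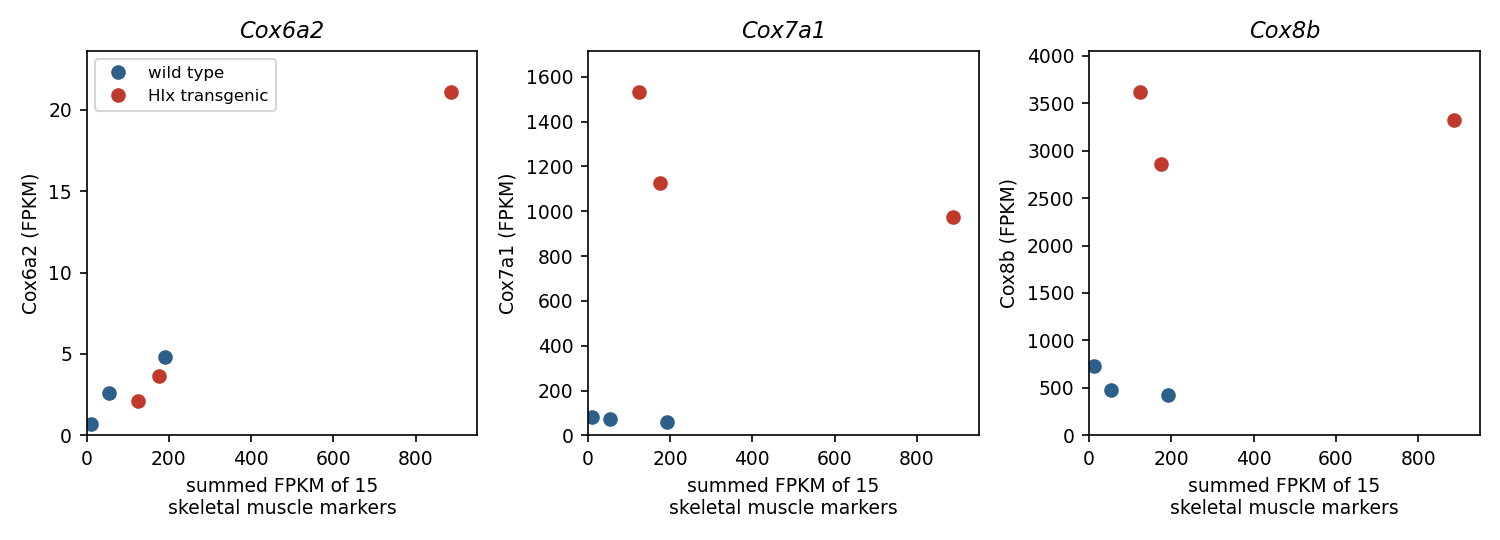
FPKM of *Cox6a2*, *Cox7a1* and *Cox8b* against the summed FPKM of the 15 skeletal muscle markers alone on their row, with 1 point per mouse (blue, 3 wild type; red, 3 transgenic). The mouse with the highest muscle sum, 887 FPKM, has the highest *Cox6a2* level, and each transgenic mouse lies above each wild-type mouse in *Cox7a1* and *Cox8b*.

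Markers of brown and beige adipocytes were mostly higher in transgenic mice, as *Cox7a1* and *Cox8b* were. The 7 in the table, among them *Ucp1* and *Cidea*, summed to 2889, 2182 and 2246 FPKM in transgenic mice, against to 264, 161 and 183 FPKM in wild-type mice, and 6 of the 7 were called higher. Among wild-type mice *Ucp1* had 57.8, 17.5 and 35.5 FPKM in replicates 1, 2 and 3, the order in which both *Cox7a1* and *Cox8b* lay. Among transgenic mice it had 634, 541 and 600 FPKM, an order that *Cox7a1* shared and *Cox8b* did not. *Cox5a*, *Cox5b* and *Cox17* had that transgenic order too, so it is not particular to *Cox7a1*. The order of 3 mice cannot show a link, which was not tested. Macrophage markers moved the other way, with sums of 343 to 487 FPKM in transgenic mice, against 727 to 923 FPKM in wild-type mice. Most of that sum was *Lyz2*, with a transgenic mean of 308 FPKM. Of the 5 macrophage markers 4 were called lower, and ratios of mean FPKM ran from 0.471 to 0.723 over the 5. Of the other lists, 2 of 7 adipocyte and 1 of 5 lymphocyte markers were called lower, beside the same 7.03% of all loci. The adipocyte markers called were *Adipoq* and *Retn*, with transgenic over wild-type ratios of mean FPKM of 0.550 and 0.250. *Fabp4*, which makes up most of the adipocyte sum, had a ratio of 1.21 and was not called. Higher calls went to 1 of 8 mural and 1 of 5 endothelial markers, beside 11.6% of all loci. A single call in so short a list says little about the list. Of 6 epithelial markers 0 were called, with 1 at an unadjusted p under 0.05 (limma). Whether cell makeup differed between the genotypes, and what part it had in the values above, was not tested.

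The remaining widely expressed subunits rose together, and all 10 of the group were called higher, beside 11.6% of all loci tested. *Cox5a*, a subunit on the matrix face, had the largest change among them, with 530, 386 and 407 FPKM in transgenic mice, against 181, 151 and 123 FPKM in wild-type mice. Its log2 fold change was 1.54 (SE 0.18, limma adjusted p = 0.00244). *Cox7b*, an X-linked subunit that spans the membrane, had 384, 366 and 365 FPKM in transgenic mice, against 150, 141 and 131 FPKM in wild-type mice. Its SE was the smallest of the group, at a log2 fold change of 1.40 (SE 0.09, limma adjusted p = 0.000418). *Cox5b*, the zinc-binding subunit of the matrix face, had 105, 85.8 and 90.0 FPKM in transgenic mice, against 41.0, 37.2 and 32.0 FPKM in wild-type mice, a log2 fold change of 1.33 (SE 0.12, limma adjusted p = 0.00104). *Cox6c*, which crosses the membrane once, had 985, 789 and 897 FPKM in transgenic mice, against 468, 464 and 371 FPKM in wild-type mice, a log2 fold change of 1.04 (SE 0.15, limma adjusted p = 0.00469).

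*Cox7c*, another membrane subunit, rose from 12.0 ± 2.01 to 22.3 ± 4.02 FPKM (SD, n = 3 each), with a log2 fold change of 0.84 (SE 0.15, limma adjusted p = 0.0123). It had the lowest FPKM of the widely expressed subunits in both genotypes. The coding sequence of *Cox7c* has near copies, at 95% identity or more over at least 80 bases, in 4 annotated pseudogenes, and *Cycs* has near copies in 4 other genes. *Cox6c* and *Cox7b* have near copies in 2 genes each and *Cox5a*, *Cox5b*, *Cox17* and *Cox7a2l* in 1 each, while *Cox4i1*, *Cox6a1*, *Cox6b1*, *Cox7a1*, *Cox7a2*, *Cox8a* and *Cox8b* have 0 in the GENCODE M21 annotation. How reads from such copies were assigned is not given in the sources used here, so the levels of members with near copies are uncertain.

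**Figure D4:**
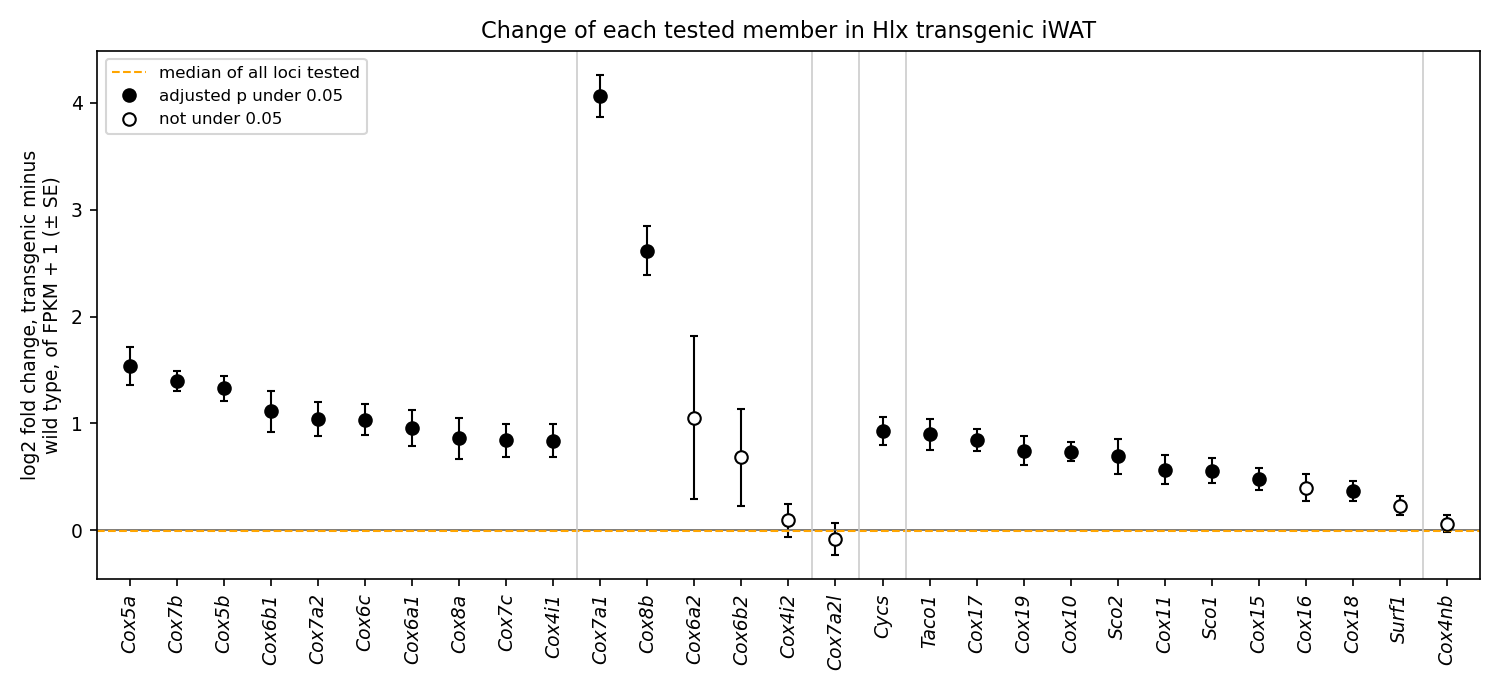
Log2 fold change of FPKM + 1, transgenic minus wild type, with its SE, for the 29 tested members, grouped from left to right as widely expressed subunits, tissue isoforms, *Cox7a2l*, *Cycs*, assembly factors and *Cox4nb* (filled, adjusted p under 0.05 by limma; open, not; 3 mice per genotype). The widely expressed subunits lie between 0.84 and 1.54, *Taco1* (0.90) and *Cox17* (0.85) are the only assembly factors in that range, and the dashed line at -0.01 is the median of all loci tested.

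Added together, the 17 structural subunits took 3.19%, 2.76% and 2.70% of all FPKM in transgenic mice, against 1.28%, 1.29% and 1.09% in wild-type mice. The widely expressed forms were 2.02% ± 0.188 of all FPKM in transgenic mice, against 1.09% ± 0.110 in wild-type mice (SD, n = 3 each). The tissue isoforms were 0.863% ± 0.0830 and 0.129% ± 0.0278. As a share of subunit FPKM, the tissue isoforms were 29.9%, 30.5% and 29.4% in transgenic and 12.5%, 8.25% and 11.1% in wild-type mice, with no overlap. *Cox8b* and *Cox7a1* made up nearly all of this, at 21.8% ± 1.42 and 8.0% ± 1.03 of subunit FPKM in transgenic mice, against 9.17% ± 2.09 and 1.2% ± 0.226 in wild-type mice. Transgenic replicate 1 was the highest transgenic mouse in 24 of the 29 tested members and wild-type replicate 3 the lowest wild-type mouse in 25, and these libraries also had the highest and the lowest summed FPKM of the 6.

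**Figure D5:**
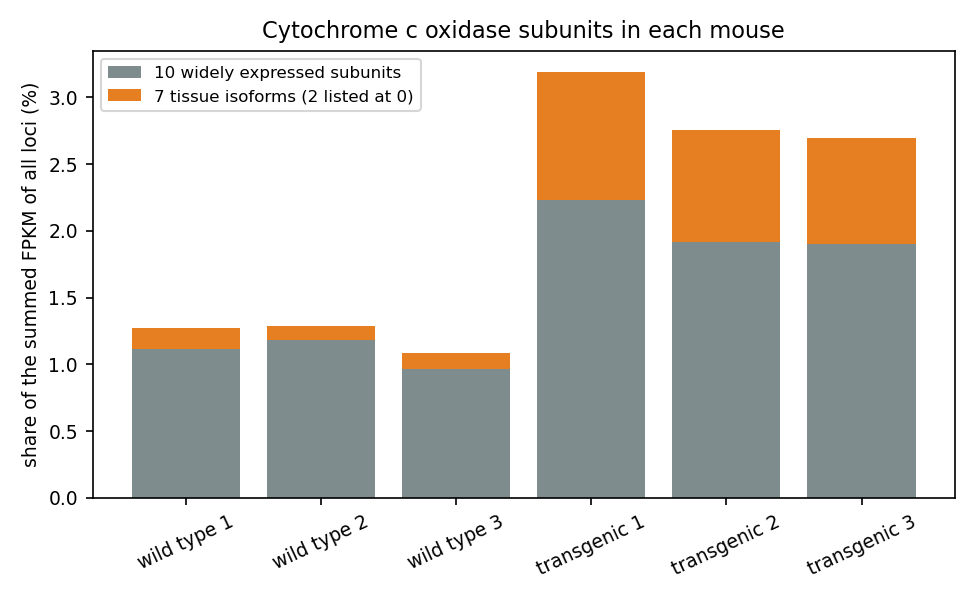
Summed FPKM of the structural subunits as a percent of all FPKM in each mouse, stacked as 10 widely expressed subunits (grey) and 7 tissue isoforms (orange, of which 2 are listed at 0). The wild-type bars reach 1.09% to 1.29% and the transgenic bars 2.70% to 3.19%, and the orange part is 0.106% to 0.160% and 0.793% to 0.955%.

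Cytochrome c itself, the mobile carrier that feeds electrons to the complex, is encoded by *Cycs*. It had 3.57, 2.52 and 3.23 FPKM in transgenic mice, against 1.23, 1.23 and 0.980 FPKM in wild-type mice. The genotypes did not overlap, and the log2 fold change was 0.93 (SE 0.13, limma adjusted p = 0.00484), with a 2.71-fold ratio of means. *Cox7a2l*, which joins complex III to complex IV in supercomplexes, did not pass the test. It had 121 ± 20.9 FPKM in transgenic mice, against 128 ± 15.5 FPKM in wild-type mice (SD, n = 3 each), with a log2 fold change of -0.08 (95% interval -0.44 to 0.27, limma adjusted p = 0.724). *Cox4nb*, the neighbour of *Cox4i1* on chromosome 8, had 12.7 ± 0.367 and 12.2 ± 0.902 FPKM (SD, n = 3 each), with a log2 fold change of 0.06 (95% interval -0.13 to 0.25, limma adjusted p = 0.632).

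The assembly factors had a lower median fold change than the subunits, a difference that was not itself tested. All 11 had every transgenic mouse above every wild-type mouse, beside 22.8% of all loci tested. Of the 11, 9 were called higher, beside 11.6% of all loci, with ratios of means over the 11 from 1.17 to 1.93 and none at 2 or more. *Taco1*, which activates translation of the mitochondrial core subunit gene Co1, had the largest change, with 35.3, 25.4 and 27.0 FPKM in transgenic mice, against 15.3, 16.9 and 13.2 FPKM in wild-type mice. Its log2 fold change was 0.90 (SE 0.15, limma adjusted p = 0.00794). Together the 11 summed to 534 ± 44.5 FPKM in transgenic mice, against 341 ± 29.96 FPKM in wild-type mice (SD, n = 3 each). That is a 1.57-fold ratio, beside 1.99-fold for the widely expressed subunits and 7.13-fold for the tissue isoforms. The tissue isoform sum was nearly all *Cox8b* and *Cox7a1*. In the assembly sum of transgenic mice, *Cox17* had 201 FPKM and the *Cox16* row, shared with *Synj2bp*, had 93.1 FPKM. These ratios therefore do not describe each gene of a group.

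Among the copper factors, *Cox17*, the chaperone that supplies the others, rose from 111 ± 6.48 to 201 ± 19.0 FPKM (SD, n = 3 each), with a log2 fold change of 0.85 (SE 0.10, limma adjusted p = 0.00266). *Cox19* rose by a log2 fold change of 0.75, *Sco2* by 0.69, *Cox11* by 0.57 and *Sco1* by 0.56, with limma adjusted p from 0.0114 to 0.0311. *Sco1* and *Sco2* bring copper to the Co2 core subunit and *Cox11* to Co1. Of the heme factors, *Cox10*, which makes heme O, rose from 7.49 ± 0.720 to 13.1 ± 0.499 FPKM (SD, n = 3 each), with a log2 fold change of 0.74 (SE 0.09, limma adjusted p = 0.00262). *Cox15*, which turns heme O into heme A, rose by a log2 fold change of 0.48 (SE 0.11, limma adjusted p = 0.0242). *Surf1*, needed early in the assembly of Co1, had 59.9 ± 2.63 and 51.0 ± 3.93 FPKM and did not pass, with a log2 fold change of 0.23 (95% interval 0.03 to 0.43, limma adjusted p = 0.105).

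*Cox18* and *Cox16* act on the Co2 core subunit, in membrane insertion and in its joining to Co1. *Cox18* rose by a log2 fold change of 0.37 (SE 0.09, limma adjusted p = 0.0368). *Cox16* had a log2 fold change of 0.40 (95% interval 0.10 to 0.70, limma adjusted p = 0.0693) and passed only without wild-type replicate 1 (0.0330). The calls of 5 assembly factors depended on single libraries, with the highest limma adjusted p at 0.0857 for *Cox11* and 0.115 for *Cox18* without wild-type replicate 3, 0.0682 for *Cox15* without transgenic replicate 1, and 0.0588 for *Sco1* and 0.0814 for *Sco2* without transgenic replicate 3. Each of the 6 libraries, left out alone, ended the call of at least 1 of these 5, whereas *Cox10*, *Cox17*, *Cox19* and *Taco1* kept theirs. *Cox11*, *Cox16* and *Sco2* share their row with *Tom1l1*, *Synj2bp* and *Tymp*, and the loci of *Cox15* and *Surf1* overlap *Entpd7* and *Cutc*, and *Surf2* and *Surf4*, so that their values may hold reads of those genes. The 8 assembly factors with a row of their own had a median log2 fold change of 0.65, and 7 of them were called higher, beside 11.6% of all loci.

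Some other assembly factors were found in the table only under older symbols, which the rule did not take. *Cox20*, a partner of Co2 listed as *Fam36a*, had 71.7 ± 11.0 and 43.3 ± 4.94 FPKM (SD, n = 3 each) and rose by a log2 fold change of 0.71 (limma adjusted p = 0.0132), while a row it shares with *Hnrnpu* had -0.26 (limma adjusted p = 0.115). *Coa3*, listed as *Ccdc56* and known to act on Co1, had a log2 fold change of 0.12 (95% interval -0.08 to 0.33, limma adjusted p = 0.340). *Coa4*, listed as *Chchd8*, had 0.36 (95% interval 0.05 to 0.68, limma adjusted p = 0.10). *Pet117*, on a row shared by *Csrp2bp* and *Gm20571*, had -0.25 (95% interval -0.55 to 0.05, limma adjusted p = 0.201). *Cox14*, *Coa1*, *Coa5* and *Coa6* were not analysed here.

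Beside the members, 17 other genes of the pathway were listed, of which 8 had a row under that symbol and 7 were tested. 5 of these 7 were called higher and 0 lower, beside 11.6% and 7.03% of all loci tested. *Ndufa4*, a subunit now counted with complex IV, had 1701 ± 314 FPKM in transgenic mice, against 729 ± 78.4 FPKM in wild-type mice (SD, n = 3 each), with a log2 fold change of 1.21 (SE 0.17, limma adjusted p = 0.00508). That value lies within the range of the widely expressed subunits. *Lrpprc*, which stabilises mitochondrial messages, rose by a log2 fold change of 0.86, *Higd2a* by 0.66, *Higd1a* by 0.65 and *Hccs*, which attaches heme to cytochrome c, by 0.54 (limma adjusted p from 0.00266 to 0.0234). *Cmc1* had 0.29 and *Fastkd2* 0.22 (limma adjusted p = 0.325 and 0.104), and *Cyct*, the testis cytochrome c, was listed at 0 in all mice. The mitochondrial genes of the catalytic core were not analysed here.

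The neighbouring complexes give the scale of these changes. All 9 nuclear subunits of complex III were called higher, with log2 fold changes of 0.72 to 1.65 and a median of 1.16. Of 15 ATP synthase subunits, 9 were called higher and 0 lower, with log2 fold changes of -0.39 to 1.22 and a median of 0.71. Over all loci tested, 11.6% were called higher and 7.03% lower. The 10 widely expressed subunits of cytochrome c oxidase, with a median of 1.04, lay between these medians, and *Cox7a1* and *Cox8b* lay above every subunit of either list. Differences between the lists were not tested.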

How the data were processed

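TruSeq libraries of iWAT RNA were read from 1 end for 100 bases. Mapping to mm10 and quantification of genes were done by the authors with TopHat and Cufflinks. The submitters' processing notes name TopHat2 2.0.9, Bowtie2 2.1.0, Cufflinks 2.2.1 and CASAVA 1.8.2. The deposited values are FPKM per gene locus and mouse. The annotation, the strand setting and the handling of reads that map to several places are not given in the sources used here. Such reads and overlapping genes could move the level of a member with near copies.

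For each of the 11692 loci, of 19445, whose mean was above 1 FPKM in 1 or both genotypes, log2(FPKM + 1) was compared between genotypes with limma 3.58.1 in R 4.3.3 (two-sided, eBayes with a trend, without covariates, 3 mice per genotype, p-values adjusted by Benjamini-Hochberg over all loci tested). Isoform ratios were compared with exact permutation tests. Depth is unknown, so no counting interval was set.

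Members, gene lists and tests were chosen with earlier results of these data known. All members are named. Values in every mouse are given for both forms of each isoform pair, for *Cycs* and for the 5 other members with the largest change past the threshold. Alternatives were a pseudocount of 0.1, no filter, eBayes without trend, quantile normalization, median-ratio scaling, the replicate number as a block and each mouse left out. Promoter sequences are from RefSeq (GRCm38.p6, the assembly of mm10). Near copies were sought with BLAST among GENCODE M21 transcripts only. Figures were drawn with matplotlib 3.10.9 in Python 3.11.15.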

Additional observations from a re-analysis of the deposited data

How the results depend on the processing

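The number of members called higher was 22 with a pseudocount of 0.1, quantile normalization, median-ratio scaling or eBayes without trend, 16 with no filter on low loci, and 16 to 22 with each mouse left out; 0 were called lower in each of these. Of the 22, 14 kept their call in all 12 other settings and 8 lost it in at least 1 (*Cox11*, *Cox15*, *Cox18*, *Sco1*, *Sco2*, *Cox4i1*, *Cox6a1* and *Cox8a*). With the replicate number as a replicate block the number was also 22. The numbers do not pair the mice (correlations of same-numbered mice 0.01, 0.03 and 0.07, with higher values between some differently numbered mice).

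The median log2 fold change of the assembly factors was 0.71 with a pseudocount of 0.1 and 0.48 to 0.69 with each mouse left out; a smaller pseudocount raises the fold change of low genes by construction. That of the structural subunits was 0.82 with quantile normalization. The *Cox4i2*/*Cox4i1* difference was -0.49 with quantile normalization; the cause was not tested. Without transgenic replicate 1, *Cox4i2* turned to -0.054 (range with each mouse left out, -0.054 to 0.24) and *Cox7a2l* to 0.022 (range -0.21 to 0.022), neither of them called. Absolute depth is unknown, so the precision it gives to low values such as those of *Cycs* and *Sco1* could not be stated.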
